A study of Mus musculus with 10 samples.

Results

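The 10 genes described here are known targets and feedback regulators of canonical Wnt signalling, chosen by name from 31053 genes counted: Axin2, Nkd1, Notum, Rnf43, Znrf3, Sp5, Lef1, Tcf7, Myc and Lgr4. Their unique molecular identifiers (UMIs, counted molecules) were read in every cell class of 8 single-cell libraries from mouse intestinal organoids and 2 from colonic crypts. ENR-organoids (3 libraries) grew with 50 ng/ml EGF, 100 ng/ml Noggin and 500 ng/ml R-Spondin 1, and without a GSK-3 inhibitor. The -VE-organoids (2 libraries) grew with 50 ng/ml EGF, 10% R-Spondin 1 conditioned medium, 0.1 µM GSK-3 Inhibitor XV, 0.2 µM LDN193189 (a BMP receptor inhibitor), 1 µM Pexmetinib (a kinase inhibitor) and 20 ng/ml FGF2. Hyper-organoids (3 libraries) had the same medium plus 500 µM VPA, a histone deacetylase inhibitor, and 2 µM EPZ6438, an EZH2 inhibitor. The crypts came from proximal mouse small intestine. The first character of the library names in the labels, 2, 6 or C, is called the culture series here. Series 2 (ENR passage 2, -VE and Hyper passage 1) and series 6 (ENR passage 7, -VE and Hyper passage 6) held all groups, with -VE- and Hyper-organoids derived from ENR-organoids. Series C held ENR- and Hyper-organoids at passage 3 from primary crypts. The labels do not give the animals behind each series, so p-values measure the spread between these libraries. The colonic crypts gave 1 library from normal mice and 1 from mice given dextran sulfate sodium (DSS), which injures the colon. Any difference between ENR- and -VE-organoids covers several agents, and the part of the GSK-3 inhibitor among them cannot be told apart.

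In canonical Wnt signalling, a Wnt ligand at a Frizzled receptor stops a destruction complex that holds GSK-3 from marking β-catenin for breakdown. β-catenin then enters the nucleus and joins TCF/LEF factors at target genes, several of which code for brakes on the same pathway. In the intestine this signalling is strongest at the crypt base and maintains Lgr5+ stem cells, and R-spondins, through LGR receptors, keep Frizzled receptors on the cell surface.

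On GRCm38 the members lie at chr11:108920349-108950783 (Axin2), chr8:88521354-88594884 (Nkd1), chr11:120653788-120661175 (Notum), chr11:87662722-87735539 (Rnf43), chr11:5276324-5444847 (Znrf3), chr2:70474923-70477729 (Sp5), chr3:131110471-131224356 (Lef1), chr11:52252371-52283014 (Tcf7), chr15:61985391-61990374 (Myc) and chr2:109917647-110014257 (Lgr4). Counted antisense genes overlap Axin2, Notum, Lef1 and Tcf7 on the opposite strand. A counted lincRNA on the same strand overlaps Tcf7, so some reads there may not have been assigned to Tcf7. RefSeq promoters on GRCm38.p6 matched 7 of the 10 members (12 promoters), and not Notum, Znrf3 or Myc. The 250 bases before each start were searched on both strands for versions of the TCF/LEF motif, the letters CTTTG followed by AA, AT, TA or TT. The letters occurred in 2 of the 12 promoters, those of Sp5 and the fourth listed start of Lef1. Among 32851 promoters in the table, 4.46% held CTTTGAA, 3.21% CTTTGAT, 3.2% CTTTGTA, 5.03% CTTTGTT and 14.8% at least 1 of them. The Sp5 promoter held CTTTGAT on its own strand, starting 104 bases before the start, and CTTTGTT on the other strand (read as AACAAAG), 222 bases before. The fourth Lef1 promoter held CTTTGTA on the other strand, 147 bases before the start. The windows of 3 members are shown because these genes stand for the different responses below: Sp5 was higher in both inhibitor media, Lef1 in Hyper-organoids, and Axin2 did not pass the test within the stem class. All are on the plus strand, printed 5′ to 3′, at chr2:70474673-70474922 (Sp5), chr3:131110047-131110296 (Lef1, first listed start) and chr11:108920099-108920348 (Axin2). Capitals mark the motif letters, and a match is a description of sequence, not of binding.
Sp5: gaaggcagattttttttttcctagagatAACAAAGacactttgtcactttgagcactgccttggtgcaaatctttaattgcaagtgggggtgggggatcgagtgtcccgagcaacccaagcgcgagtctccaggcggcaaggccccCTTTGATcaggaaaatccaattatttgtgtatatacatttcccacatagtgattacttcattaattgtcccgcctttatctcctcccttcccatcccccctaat
Lef1: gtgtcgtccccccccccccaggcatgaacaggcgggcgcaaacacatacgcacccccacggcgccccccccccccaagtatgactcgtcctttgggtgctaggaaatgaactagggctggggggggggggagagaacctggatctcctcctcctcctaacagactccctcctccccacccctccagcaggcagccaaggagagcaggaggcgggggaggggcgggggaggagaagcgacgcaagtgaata
Axin2: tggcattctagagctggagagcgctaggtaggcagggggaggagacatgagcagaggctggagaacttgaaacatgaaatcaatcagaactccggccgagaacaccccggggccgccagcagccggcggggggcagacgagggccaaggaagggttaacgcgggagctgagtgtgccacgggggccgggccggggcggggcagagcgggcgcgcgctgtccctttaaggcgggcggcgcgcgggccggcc

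The organoid libraries held 1983 to 4293 kept cells and 89124015 to 170019527 UMIs each, with medians of 38173.5 to 50651.5 UMIs per cell. Barcodes shared by any 2 libraries numbered at most 5. The study's annotation gave stem (SC), transit amplifying (TA), revival stem (RSC), enterocyte progenitor (EP), enterocyte (EC), goblet (GC), Paneth (PC) and enteroendocrine (EE) classes. All 4 markers fixed for EC, EE, PC and TA were highest in their own class, as were 3 of 4 for EP and RSC and 2 of 4 for GC. Of the 4 stem markers only Lgr5 was, since Olfm4 was slightly higher in TA cells and Cd44 and Ascl2 in small classes. Stem cells made up 9.75 to 14.7% of ENR cells, 24.3 to 28.2% of -VE cells and 40.0 to 44.1% of Hyper cells, and EP cells 22.2 to 34.5%, 4.29 to 4.39% and 0.0852 to 0.107%. Sums over all kept cells therefore mix class shares with levels per cell, and fewer cells of a type cannot be told apart there from less RNA per cell. Of 10 leukocyte markers, 2 to 5 were at 0 in each organoid library, Ptprc was at 0 in 7 of the 8, and their summed level was 0.605 to 0.964 CPM (a gene's counts scaled to a common library total). The 6 stroma and endothelium markers summed to 0.370 to 0.545 CPM in ENR-, 0.376 to 0.476 in -VE- and 0.908 to 1.29 in Hyper-organoids, with 1 to 3 of them at 0 and Pecam1 the highest. Col1a1 had 6, 6 and 2 UMIs in ENR-, 7 and 8 in -VE- and 64, 69 and 31 in Hyper-organoids. Dcn had at most 1 UMI outside Hyper-organoids and 11, 5 and 6 in them, while Col1a2, Col3a1 and Acta2 had at most 4 in any library. Their part in the differences below was not tested.

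Across all kept cells, every member was higher in Hyper- than in ENR-organoids, and 5 of 10 passed the call rule (adjusted p under 0.05 in edgeR's quasi-likelihood test and at least 2-fold): Nkd1, Notum, Sp5, Lef1 and Tcf7. Of 16037 genes tested, 22.9% were called. Without a minimum fold all 10 members had an adjusted p under 0.05, against 56.8% of all genes, and no member's libraries overlapped between the groups, against 64.4%. Lef1 passed the count filter through its Hyper counts and could not be called lower, and these member counts include it. The median log2 difference of the members was 1.23, beside -0.01 for all genes tested. The levels below are CPM scaled by the trimmed mean of M-values (TMM), each given for series 2, 6 and C of ENR, series 2 and 6 of -VE, and series 2, 6 and C of Hyper.

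**Figure D1:**
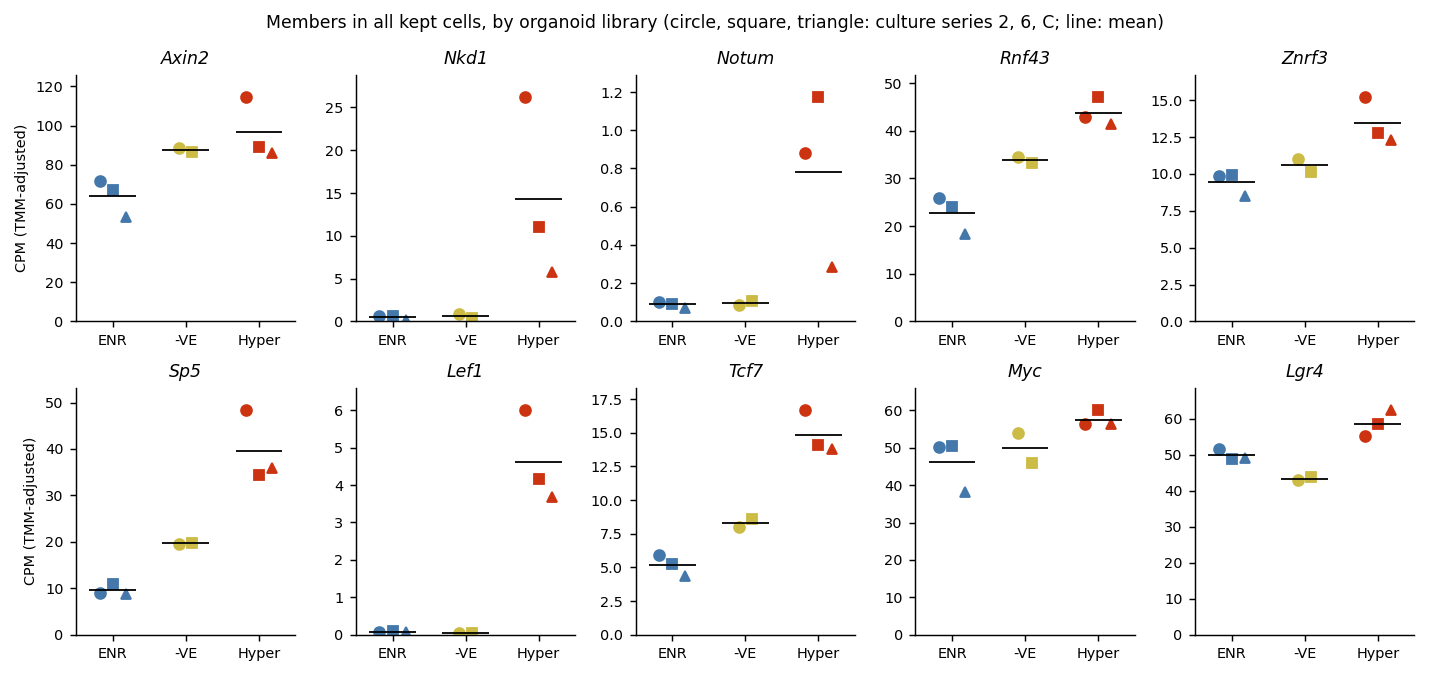
Level of each of the 10 members in every organoid library, in TMM-scaled CPM over all kept cells (linear axis from 0), by medium. Circle, square and triangle mark culture series 2, 6 and C, and the line is the mean. The 3 Hyper libraries sit above the 3 ENR libraries for every member, and Lef1 is at 3.67 to 6.00 CPM in Hyper- against 0.06 to 0.09 CPM in ENR-organoids.

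Among the feedback members, Nkd1, which binds Dishevelled and dampens the signal, changed the most. It was at 0.61, 0.68 and 0.17 CPM in ENR-organoids, 0.89 and 0.37 CPM in the -VE libraries, and 26.2, 11.02 and 5.83 CPM in the Hyper libraries. Every Hyper library stood above all others, although the Hyper libraries themselves differed widely. Nkd1 rose by a log2 fold of 4.85 (SE 0.71, edgeR adjusted p = 0.000598) over ENR and 4.54 (SE 0.82, adjusted p = 0.00274) over -VE. Between -VE and ENR its values overlapped, and the log2 difference was 0.31 (SE 0.78, adjusted p = 0.848).

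Notum, a secreted esterase that removes the lipid Wnt ligands need, was sparse throughout. Its UMIs numbered 10, 11 and 6 in ENR-, 10 and 18 in -VE- and 130, 177 and 27 in Hyper-organoids, or 0.07 to 0.10, 0.09 to 0.11 and 0.28 to 1.17 CPM. The Hyper libraries lay above all others, the one of series C by least. Notum rose by 3.12 (SE 0.53, adjusted p = 0.00131) over ENR and 2.99 (SE 0.59, adjusted p = 0.00431) over -VE on the log2 scale in edgeR's test.

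Axin2, a scaffold of the destruction complex and a widely used readout of Wnt activity, moved much less. Its levels were 71.7, 67.2 and 53.4 CPM in ENR-, 88.5 and 86.7 in -VE- and 115, 89.2 and 86.2 in Hyper-organoids. The -VE and Hyper values overlapped and all lay above ENR. The log2 difference was 0.59 (SE 0.13, edgeR adjusted p = 0.00578) for Hyper over ENR, 0.45 (SE 0.15, adjusted p = 0.108) for -VE over ENR and 0.14 (SE 0.15, adjusted p = 0.468) for Hyper over -VE.

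Rnf43 and Znrf3 code for related membrane ubiquitin ligases that clear Frizzled receptors from the cell surface. Rnf43 stood at 25.9, 24.0 and 18.3 CPM in ENR-, 34.5 and 33.2 in -VE- and 42.8, 47.1 and 41.5 in Hyper-organoids, so that the groups formed 3 steps without overlap. Its log2 difference from ENR was 0.94 (SE 0.12, edgeR adjusted p = 0.000281) in Hyper and 0.57 (SE 0.13, adjusted p = 0.0377) in -VE, both short of 2-fold. Without ENR replicate 1 the Hyper difference was 1.05 and passed the 2-fold rule. Znrf3 ran from 8.50 to 9.96 CPM in ENR-, 10.2 to 11.1 in -VE- and 12.3 to 15.2 in Hyper-organoids, a log2 difference of 0.51 (SE 0.10, edgeR adjusted p = 0.00346) for Hyper over ENR.

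Among the transcription factors, Lef1, a DNA-binding partner of β-catenin, separated Hyper-organoids from both other groups. It had 6, 11 and 6 UMIs in ENR-, 4 and 8 in -VE- and 884, 626 and 348 in Hyper-organoids, or 0.06 to 0.09, 0.03 to 0.05 and 3.67 to 6.00 CPM. No Hyper library came near the others, and -VE values lay below ENR values. Lef1 rose by a log2 fold of 5.90 (SE 0.29, edgeR adjusted p = 3.16e-06) over ENR and 6.73 (SE 0.36, adjusted p = 1.37e-05) over -VE, while -VE over ENR gave -0.83 (SE 0.42, adjusted p = 0.293). The counts behind that last value are few, and Lef1 passed the count filter through its Hyper counts.

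Sp5, a zinc-finger factor that acts at Wnt target genes, was the 1 member called in every comparison of media. Its levels were 9.09, 10.9 and 8.73 CPM in ENR-, 19.5 and 19.8 in -VE- and 48.3, 34.5 and 35.8 in Hyper-organoids. The steps did not overlap. Sp5 rose by a log2 fold of 2.04 (SE 0.14, edgeR adjusted p = 1.47e-05) in Hyper over ENR, 1.04 (SE 0.15, adjusted p = 0.00906) in -VE over ENR and 1.01 (SE 0.16, adjusted p = 0.00141) in Hyper over -VE. The smaller pair sat close to the 2-fold limit, and the call of -VE over ENR was lost at 0.97 (adjusted p = 0.0175) under a replicate block of culture series, at 1.00 and 0.97 without ENR replicate 1 or ENR replicate 3, on the adjusted p (0.0671, at 1.02) without -VE replicate 2, and at 0.92 with cells thinned to 10000 UMIs. Hyper over -VE was 0.84 without Hyper replicate 1.

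Tcf7, which codes for TCF1, another partner of β-catenin, showed a similar order at lower fold. It was at 5.90, 5.26 and 4.33 CPM in ENR-, 8.03 and 8.60 in -VE- and 16.7, 14.1 and 13.8 in Hyper-organoids, again without overlap. Tcf7 rose by a log2 fold of 1.52 (SE 0.13, edgeR adjusted p = 3.30e-05) in Hyper over ENR. The differences of 0.69 (SE 0.14, adjusted p = 0.026) in -VE over ENR and 0.84 (SE 0.14, adjusted p = 0.00207) in Hyper over -VE passed the test but not the 2-fold limit.

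Myc, a growth regulator and classical Wnt target in intestinal cells, and Lgr4, an R-spondin receptor, had the smallest differences of the 10 between Hyper and ENR. Myc was at 50.1, 50.5 and 38.2 CPM in ENR-, 53.9 and 45.9 in -VE- and 56.4, 60.0 and 56.3 in Hyper-organoids, a log2 difference of 0.31 (SE 0.11, edgeR adjusted p = 0.0406) for Hyper over ENR. Lgr4 was at 51.7, 48.7 and 49.0 CPM in ENR-, 42.9 and 43.7 in -VE- and 55.1, 58.5 and 62.3 in Hyper-organoids. Its log2 difference was 0.24 (SE 0.06, adjusted p = 0.00767) for Hyper over ENR in edgeR's test. The -VE libraries were the lowest for Lgr4, by -0.20 (SE 0.06, adjusted p = 0.0976) against ENR and 0.44 (SE 0.06, adjusted p = 0.00105) for Hyper over -VE.

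The same fit compared -VE- with ENR-organoids and Hyper- with -VE-organoids, which share libraries with the comparison above. Between -VE and ENR only Sp5 of the 10 members was called, where 2.55% of all genes were, and 3 members (Sp5, Tcf7 and Rnf43) had an adjusted p under 0.05, against 7.88% of all genes. These groups did not overlap for 7 members, against 45.7% of all genes, and the members' median log2 difference was 0.24. Of the 7, Lgr4 and Lef1 were lower in -VE, Lef1 on 4 and 8 UMIs against 6, 11 and 6 in ENR. Between Hyper and -VE, 4 members were called (Nkd1, Notum, Sp5 and Lef1), against 18.6% of genes, and 8 had an adjusted p under 0.05, against 47.6%. These groups did not overlap for 9, against 67.0%, and the median was 0.64. The exceptions under the adjusted p were Axin2 and Myc. Lef1 could not be called lower here either and is part of the counts for Hyper over -VE.

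**Figure D2:**
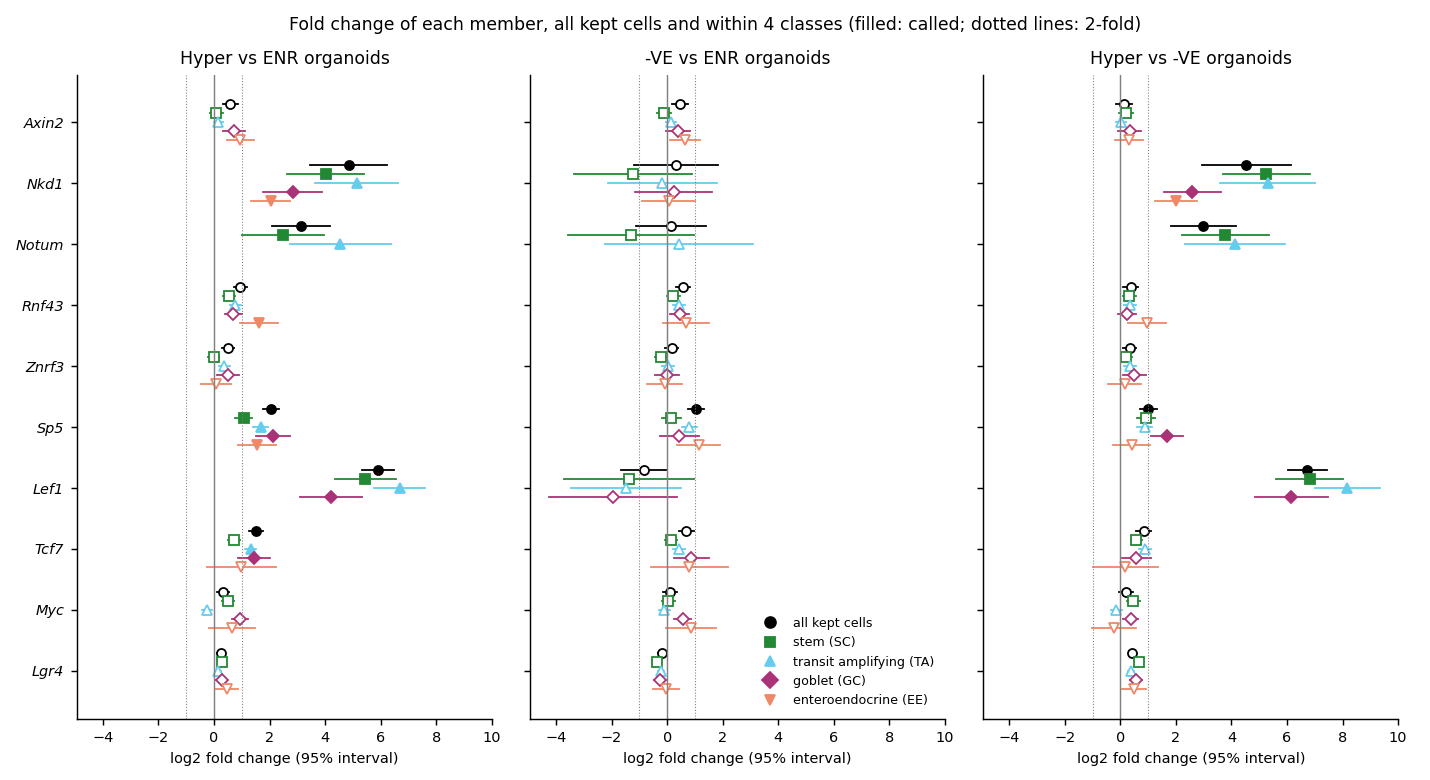
Log2 fold change of each member in edgeR's quasi-likelihood fit, with approximate 95% intervals, for the 3 comparisons of media over all kept cells and within the stem, TA, goblet and enteroendocrine classes. The intervals use a normal quantile and are narrow for so few libraries, so an interval that leaves out no difference is not a passed test. Filled symbols were called, dotted lines mark 2-fold, and members filtered out of a class have no symbol. Nkd1, Notum and Lef1 have the highest values over all kept cells in both comparisons with Hyper-organoids, and in -VE against ENR the 1 filled symbol is Sp5 over all kept cells.

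Since stem cells were more frequent in the inhibitor media, the members were also compared within the stem, TA, goblet and EE classes. In these classes every library held at least 20 cells, and the other classes were not compared between media by a test. Within the stem class, 4 members rose in Hyper- over ENR-organoids: Nkd1, Notum, Sp5 and Lef1, against 18.0% of 13920 genes called. According to the study, the stem cells and also the TA cells of Hyper- and ENR-organoids fell in separate clusters, which the deposited class names do not keep apart. The part of that separation in the values within the stem and TA classes, and in the stem minus TA differences, was not tested. Nkd1 stood at 0.55, 1.41 and 0.56 CPM in ENR stem cells, 0.57 and 0.19 in -VE stem cells and 26.0, 10.7 and 5.48 in Hyper stem cells, a log2 fold of 4.02 (SE 0.70, edgeR adjusted p = 0.00128) over ENR. Lef1 had 3, 1 and 0 UMIs in ENR stem cells, 3 and 0 in -VE stem cells and 362, 286 and 172 in Hyper stem cells. Its log2 fold over ENR was 5.44 (SE 0.56, adjusted p = 6.73e-05). Against the 3 UMIs of -VE stem cells it rose too, and the ratio of pooled CPM was 136, with an exact counting interval of 46.3 to 659. Counting intervals cover counting error only. In stem cells Lef1 and Notum passed the count filter through their Hyper counts. A lower call in Hyper-organoids was therefore not open to these members, which are part of the count above.

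Sp5 was at 17.5, 23.2 and 21.5 CPM in ENR stem cells, 22.4 and 23.3 in -VE stem cells and 53.7, 36.5 and 39.6 in Hyper stem cells. ENR and -VE stem cells therefore overlapped for Sp5, unlike the sums over all cells. Its log2 fold in Hyper over ENR was 1.07 (SE 0.16, edgeR adjusted p = 0.000483), and 0.97, 0.91 and 0.99 without ENR replicate 1, without Hyper replicate 1 or after thinning to 10000 UMIs, which are under 2-fold. Notum rested on 2, 2 and 1 UMIs in ENR stem cells against 56, 69 and 11 in Hyper stem cells, a log2 fold of 2.48 (SE 0.75, adjusted p = 0.0208) whose adjusted p was 0.0526 to 0.0713 without any 1 of the ENR libraries. After thinning Notum was filtered out and not tested, so that Nkd1 and Lef1 were the 2 members called.

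The other members differed by less than 2-fold in stem cells. Tcf7 went from 8.34 to 9.84 CPM in ENR to 14.0 to 16.4 CPM in Hyper stem cells (log2 0.72, SE 0.10, edgeR adjusted p = 0.000439). Rnf43, Myc and Lgr4 differed by 0.54, 0.50 and 0.30 on the log2 scale, with adjusted p of 0.00333, 0.00413 and 0.00613. Axin2 and Znrf3 did not pass. Axin2 was at 91.8, 94.5 and 83.5 CPM in ENR stem cells and 116, 87.3 and 82.8 in Hyper stem cells, which overlap, with a log2 difference of 0.08 (SE 0.12, edgeR adjusted p = 0.597). Znrf3 gave a log2 difference of -0.0042 (SE 0.10, adjusted p = 0.977), whose sign turned under several settings. In -VE over ENR stem cells none of the 10 members was called, where 0.503% of genes were, and 1 (Lgr4, log2 -0.37, SE 0.08, adjusted p = 0.0601) had an unadjusted p under 0.05, as did 17.7% of all genes. The Sp5 difference there was 0.15 (SE 0.17, adjusted p = 0.715). In Hyper over -VE stem cells Nkd1, Notum and Lef1 were called (3 of 10, against 16.5% of genes), and Sp5 stayed just short of 2-fold at 0.92 (SE 0.17, edgeR adjusted p = 0.00191). Notum there rose by 3.78 (edgeR adjusted p = 0.00424), and the call was lost without -VE replicate 2 at a log2 difference of 3.08 (adjusted p = 0.0533), and without Hyper replicate 2 Sp5 was called at 1.05.

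Within the TA class, 5 members rose in Hyper over ENR, against 20.9% of 14553 genes. Nkd1 rose by 5.13 (SE 0.76), Notum by 4.55 (SE 0.93), Sp5 by 1.67 (SE 0.13), Lef1 by 6.68 (SE 0.47) and Tcf7 by 1.32 (SE 0.10) on the log2 scale, with edgeR adjusted p of 0.000556, 0.00307, 1.53e-05, 9.65e-06 and 1.69e-05. Notum rested there on 0, 3 and 1 UMIs in ENR cells against 65, 100 and 9 in Hyper cells. Notum and Lef1 passed the filter of this class through their Hyper counts as well. Sp5 was at 10.6, 13.4 and 11.7 CPM in ENR TA cells, 20.8 and 20.5 in -VE TA cells and 45.5, 34.2 and 34.2 in Hyper TA cells, so here, unlike in stem cells, the -VE libraries lay above ENR. Axin2, Rnf43, Znrf3 and Lgr4 differed by 0.15, 0.76, 0.38 and 0.16 on the log2 scale, with edgeR adjusted p of 0.153, 0.000301, 0.0128 and 0.0251. Myc was the 1 member with a lower level in Hyper TA cells: 42.0 to 47.1 CPM, against 47.6 to 58.3 in ENR TA cells (log2 -0.24, SE 0.09, edgeR adjusted p = 0.0397). In -VE over ENR TA cells no member was called (1.03% of genes were). An unadjusted p under 0.05 was met by 4 of 10 members and 19.2% of all genes, and Sp5 passed the adjusted p at 0.79 (SE 0.14, edgeR adjusted p = 0.0251), under 2-fold. In Hyper over -VE, 3 members were called (Nkd1, Notum and Lef1), against 17.8% of genes. Lef1 had 1 and 1 UMIs in -VE TA cells against 452, 297 and 144 in Hyper TA cells, a pooled ratio of 379 (counting interval 105 to 3132).

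Goblet cells, a mucus-secreting class, gave 4 calls in Hyper over ENR among 9 members tested (Notum, with 0 to 4 UMIs a library, was filtered out), against 13.3% of 11714 genes. Nkd1 rose by 2.83 (SE 0.54), Sp5 by 2.11 (SE 0.31), Lef1 by 4.21 (SE 0.57) and Tcf7 by 1.45 (SE 0.29), with edgeR adjusted p of 0.00225, 0.000387, 0.000215 and 0.00291. Lef1 there was 0, 2 and 1 UMIs in ENR against 34, 35 and 22 in Hyper goblet cells (pooled ratio 21.3, counting interval 7.05 to 105). It passed the filter through its Hyper counts. Myc, at 24.5 to 33.8 CPM in ENR and 52.8 to 56.3 in Hyper goblet cells, differed by 0.93 (SE 0.14, edgeR adjusted p = 0.000467). Axin2, Rnf43, Znrf3 and Lgr4 differed by 0.72, 0.69, 0.50 and 0.28, with adjusted p of 0.019, 0.00632, 0.0865 and 0.0503 in edgeR's test. No member was called in -VE over ENR (1.14% of genes were), and 4 of 9 had an unadjusted p under 0.05, as did 18.1% of all genes. Nkd1, Sp5 and Lef1 rose in Hyper over -VE, 3 of 9 against 9.87% of genes.

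Enteroendocrine cells, which release hormones, gave 3 calls in Hyper over ENR among 8 members tested (Notum and Lef1 were filtered out), against 7.4% of 11050 genes. Nkd1 rose by 2.04 (SE 0.36), Rnf43 by 1.63 (SE 0.35) and Sp5 by 1.55 (SE 0.35) on the log2 scale, with edgeR adjusted p of 0.00365, 0.0106 and 0.0134. Rnf43 was at 5.77, 10.6 and 4.27 CPM in ENR and 21.1, 24.5 and 21.7 CPM in Hyper enteroendocrine cells, without overlap. Axin2, Znrf3, Tcf7, Myc and Lgr4 differed by 0.95, 0.07, 0.99, 0.64 and 0.46, with adjusted p of 0.0261, 0.903, 0.341, 0.354 and 0.173 in edgeR's test. No member was called in -VE over ENR (0.19% of genes were), and 2 of 8 had an unadjusted p under 0.05, as did 12.8% of all genes. Nkd1 was called in Hyper over -VE, 1 of 8 against 4.01% of genes, and not without -VE replicate 1 or -VE replicate 2.

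Where the members were read within ENR-organoids differed between genes, and these levels are a description, since the classes were built from all genes of the same cells. Plain CPM per library and class are given, for classes with at least 20 cells. Axin2 ran at 78.7 to 92.7 CPM in stem and 82.9 to 96.9 CPM in TA cells of ENR-organoids, whose ranges overlap, then 31.5 to 63.9 in goblet, 30.8 to 57.7 in EE, 27.6 to 39.8 in EP and 23.4 to 32.3 in Paneth cells. TA and goblet cells did not overlap, each later pair of neighbours did, and all lay above the 3.06 to 6.72 CPM of enterocytes. Sp5 was at 10.9 to 39.4 CPM in EE, 17.3 to 22.8 in stem, 10.6 to 13.1 in TA, 4.41 to 18.2 in Paneth, 3.70 to 12.1 in goblet and 2.47 to 4.22 CPM in enterocytes. The EE range overlapped those of stem, TA, Paneth and goblet cells, while stem lay above TA cells without overlap. Sp5 in EE cells was also high in the other media, at 50.3 to 52.5 CPM in -VE- and 45.0 to 85.9 CPM in Hyper-organoids.

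Nkd1 and Notum rested on few UMIs in the small classes of ENR-organoids. Nkd1 was at 2.05 to 9.14 CPM in EE (10, 13 and 2 UMIs), 1.37 to 6.42 in Paneth (3, 6 and 1 UMIs), 0.874 to 3.13 in goblet (9, 16 and 3 UMIs) and 0.524 to 1.38 CPM in stem cells, of which only EE did not overlap stem cells. It was at 0.0904 to 0.56 CPM in TA cells and had no UMI in enterocytes. Notum had 7, 5 and 3 UMIs in EE cells, or 3.08 to 5.44 CPM, and was at most 0.291 CPM in stem, TA, goblet and EP cells. Paneth cells had no Notum UMI, but 3 UMIs would be 3.21 to 4.41 CPM there, so they cannot be set apart from EE cells at this depth. In Hyper-organoids Nkd1 was at 5.65 to 27.6 CPM in stem, 5.88 to 27.9 in TA, 7.61 to 29.7 in goblet and 21.8 to 33.5 in EE cells. These classes overlapped. Notum in Hyper-organoids ran from 0.303 to 1.33 CPM in stem and 0.201 to 1.27 in TA cells, with EE cells at 1.39 to 3.17 on only 6, 3 and 6 UMIs.

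Lef1 in Hyper-organoids was spread over stem (4.74 to 7.27 CPM), TA (3.22 to 5.73), goblet (4.65 to 5.57) and EE cells (2.32 to 12.4), and no UMI was counted in enterocytes. Tcf7 was at 14.5 to 17.4 CPM in stem and 15.7 to 19.2 CPM in TA cells of Hyper-organoids, and at 7.86 to 9.65 and 5.64 to 6.89 CPM in ENR-organoids, where the stem range lay above every other class and the TA range overlapped that of Paneth cells (1.37 to 5.88 CPM). Revival stem cells reached 20 cells in 1 Hyper library, where 26 cells held Axin2 at 65.5, Sp5 at 41.0, Tcf7 at 15.9, Nkd1 at 3.97 and Lef1 at 0.662 CPM, the last from 1 UMI. Myc in Hyper-organoids reached 79.4 to 89.4 CPM in stem cells against 43.5 to 49.7 in TA cells, while in ENR-organoids these classes overlapped at 45.7 to 60.0 and 45.0 to 57.3 CPM. Lgr4 was highest in Paneth cells of ENR-organoids, at 64.6 to 88.8 CPM, with 55.9 to 58.0 in goblet cells, 49.1 to 51.0 in stem cells, 37.9 to 43.9 in enterocytes and 22.5 to 36.5 in EE cells.

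**Figure D3:**
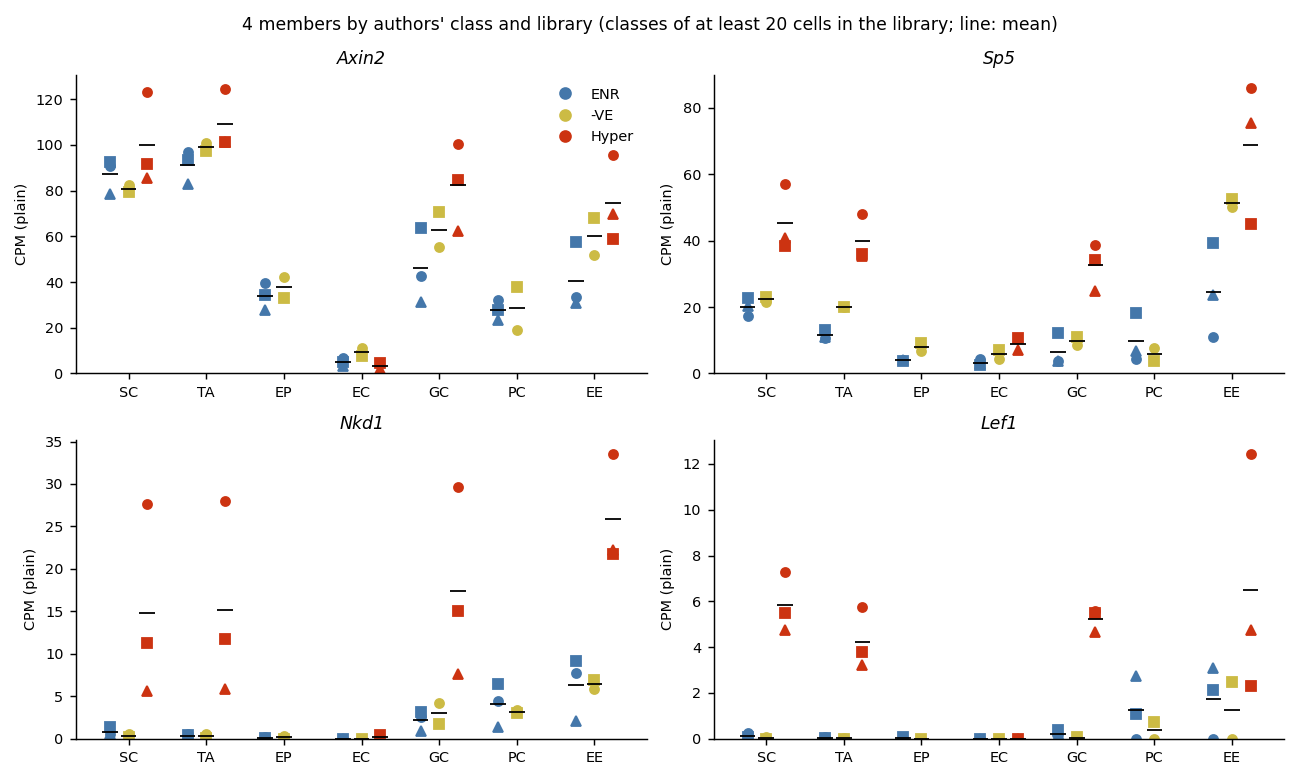
CPM of Axin2, Sp5, Nkd1 and Lef1 in each annotated class by medium (linear axis from 0), for classes with at least 20 cells in a library and without revival stem cells. Points are libraries (circle, square and triangle for culture series 2, 6 and C) and lines are means. In stem, TA and goblet cells every Hyper library lies above all others for Nkd1 and Lef1, in EE cells Nkd1 does so while Lef1 overlaps between media, and Axin2 lies between 78.7 and 125 CPM in stem and TA cells of all media.

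Shares of cells were read after thinning to 10000 UMIs per cell. Cells with fewer UMIs were left out, so 1870 to 4013 cells a library were read, of 1983 to 4293 kept. Lef1 was seen in 0.05, 0.16 and 0.09% of ENR cells, 0.04 and 0.10% of -VE cells and 6.07, 4.05 and 3.58% of Hyper cells. Nkd1 was seen in 0.60, 0.84 and 0.18% of ENR, 1.17 and 0.52% of -VE and 19.8, 9.09 and 6.26% of Hyper cells. In enterocytes, taken here as a background class, no thinned cell held a Lef1 or Nkd1 UMI: 0 of 782 ENR cells, which allows up to 0.384%, 0 of 369 -VE cells (up to 0.813%) and 0 of 82 Hyper cells (up to 3.66%). These limits pool the libraries, cover counting error only, and bound the share of cells with a UMI at this depth, not of cells that express the gene. Median depths of enterocytes were 30103.5 to 57295 UMIs. Sp5 was seen in 7.45 to 9.77% of ENR, 15.7 to 16.3% of -VE and 27.5 to 36.2% of Hyper cells, with 2.81%, 7.86% and 6.10% of enterocytes. Axin2 was seen in 32.6 to 42.8% of ENR, 49.2 to 51.1% of -VE and 53.7 to 66.5% of Hyper cells, with 4.86%, 7.32% and 4.88% of enterocytes. Unthinned, the Axin2 shares were 57.8 to 71.0%, 77.4 to 83.7% and 83.2 to 94.6%, and the Lef1 shares of Hyper cells 12.4 to 22.3%.

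Whether the difference between media itself differed between stem and TA cells was tested with limma on each library's stem minus TA difference in log2 CPM (prior count 2). The prior count weighs more in the stem sums, which hold fewer UMIs, so near 0 UMIs it gives a positive difference by itself. Lef1 had 0 UMIs in both classes of ENR replicate 3 and a difference of 1.07. The Lef1 and Notum values of ENR- and -VE-organoids are partly set in this way. Between Hyper and ENR, 5 of the 10 members had an adjusted p under 0.05, against 9.69% of 13879 genes, and none of the 10 did in the same fit with culture series as a replicate block, where 0.331% of all genes did. In that blocked fit 8 members had an unadjusted p under 0.05, as did 25.3% of all genes. For Sp5 the stem minus TA difference was 0.72, 0.80 and 0.88 in ENR-, 0.11 and 0.19 in -VE- and 0.24, 0.09 and 0.21 in Hyper-organoids. Sp5 was thus higher in stem than in TA cells in all 8 libraries, and the gap in the inhibitor media was smaller than in every ENR library. The change of the gap was -0.62 (SE 0.07, limma adjusted p = 0.00903) in Hyper against ENR and -0.65 (SE 0.07, adjusted p = 0.083) in -VE against ENR.

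Myc moved the other way. Its stem minus TA difference was 0.15, 0.03 and 0.03 in ENR-, 0.27 and 0.14 in -VE- and 0.69, 0.85 and 0.92 in Hyper-organoids, with Hyper above all others. The gap widened by 0.75 (SE 0.08, limma adjusted p = 0.00899) over ENR and 0.61 (SE 0.09, adjusted p = 0.0394) over -VE. Tcf7 (-0.58, SE 0.08, limma adjusted p = 0.0129), Znrf3 (-0.39, SE 0.09, adjusted p = 0.044) and Rnf43 (-0.21, SE 0.05, adjusted p = 0.0451) had a lower stem minus TA difference in Hyper- than in ENR-organoids. It went from 0.12, 0.18 and 0.40 to -0.15, -0.14 and -0.17 for Znrf3, and from 0.39, 0.62 and 0.49 to -0.15, 0.0023 and -0.11 for Tcf7. Rnf43 stayed higher in stem than in TA cells, at 0.34, 0.32 and 0.26 in ENR- and 0.03, 0.11 and 0.15 in Hyper-organoids. Of these, Rnf43 no longer passed without any 1 of the 8 libraries (adjusted p 0.0586 to 0.135), Znrf3 without any but ENR replicate 1 (0.058 to 0.136) and Tcf7 without Hyper replicate 3 (0.0603), with the same direction each time. Without ENR replicate 1 Nkd1 passed as well, at -1.93 (limma adjusted p = 0.0288), where the ENR stem sums held 17 and 4 Nkd1 UMIs. For Axin2 the change was -0.08 (SE 0.06, limma adjusted p = 0.46). Between Hyper and -VE, Myc was the 1 member that passed, against 1.4% of genes, and it no longer passed without any 1 library but Hyper replicate 1 (adjusted p 0.0522 to 0.254). Between -VE and ENR no member passed, and of all genes 0.0% did, although 11.8% had an unadjusted p under 0.05, among them 6 of the 10 members. Under the replicate block, the adjusted p for Hyper against ENR was 0.0542 for Sp5, 0.0603 for Myc, 0.0639 for Tcf7, 0.0949 for Znrf3 and 0.131 for Rnf43 with the same differences, and that of Myc for Hyper against -VE was 0.206, with a difference of 0.60, where 0.0% of all genes passed and 13.6% had an unadjusted p under 0.05.

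**Figure D4:**
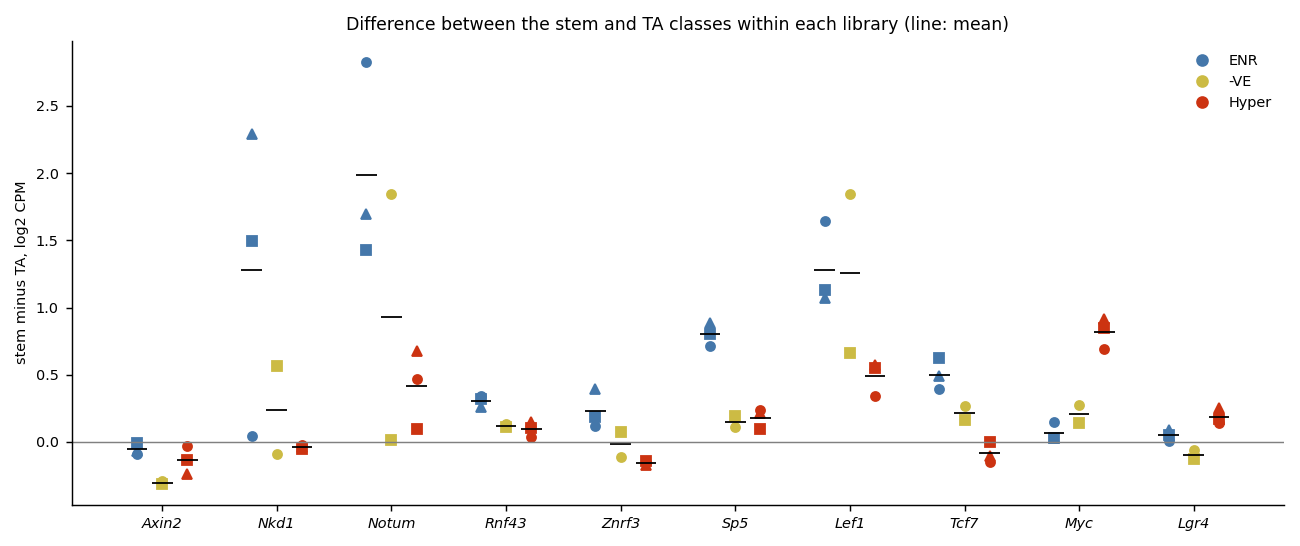
Stem minus TA difference in log2 CPM for each member and library, by medium (circle, square and triangle for culture series 2, 6 and C). Short lines are means and the long line marks no difference. The prior count gives part of the Lef1 and Notum values in ENR- and -VE-organoids. For Sp5 the 3 ENR libraries lie at 0.72 to 0.88 and all others at 0.24 or less, and for Myc the 3 Hyper libraries lie at 0.69 to 0.92 and all others at 0.27 or less.

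The rest of the pathway was read from lists of 98 further genes, of which 81 were tested over all kept cells. In Hyper over ENR 33 were called, 32 higher and 1 lower, with a median log2 difference of 0.73, where 22.9% of all genes were called, 2913 higher and 762 lower. By role these were 6 of 11 Wnt ligands, 1 of 2 ligand secretion genes, 7 of 15 receptors and co-receptors, 2 of 2 R-spondins and further receptors, 7 of 11 secreted or membrane inhibitors, 2 of 13 destruction complex and signal genes, 3 of 10 nuclear factors and 5 of 17 other crypt targets. The 6 genes with the largest fitted changes were Sfrp2 and Dkk2, secreted Wnt inhibitors, Pygo1, a nuclear co-factor, the ligands Wnt5a and Wnt10a, and Tnfrsf19, a crypt target. Against a group at 0 UMIs a fitted value depends on the prior count, so this choice gives no order of size. Sfrp2 had 882 UMIs in Hyper-organoids and none in ENR-organoids, so it was at least 245-fold higher (against 3 UMIs over the group). On the same floor Pygo1 was at least 20.8-fold and Dkk2 at least 18.1-fold higher. Sfrp2, Pygo1, Dkk2 and Wnt10a passed the count filter through their Hyper counts and could not be called lower. The counts by direction, the counts by role and the median include such genes, here and in Hyper over -VE below. Wnt5a rose by 6.91 (SE 0.54) and Tnfrsf19 by 5.96 (SE 0.39) on the log2 scale, and Wnt10a by a pooled ratio of 60.9 (counting interval 20.6 to 297).

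The 1 gene of the lists called lower in Hyper over ENR, named after its values were seen, was Fzd5, a Frizzled receptor, which fell by 1.77 (SE 0.07, edgeR adjusted p = 1.51e-06) on the log2 scale. In -VE over ENR 3 of the 81 were called, where 2.55% of all genes were: Tnfrsf19 (3.19), Mmp7 (1.27), a matrix protease gene, and Wnt3 (1.16), a ligand that Paneth cells make, with a median of 0.12 over the list. In Hyper over -VE 26 were called, 25 higher and 1 lower, against 18.6% of all genes (2582 higher and 403 lower), with a median of 0.41. The lower one, also named after its values were seen, was Wnt2, a ligand at 0.29 and 0.11 CPM in the -VE libraries and at most 0.0475 CPM in the Hyper libraries (log2 -2.81, SE 0.72, edgeR adjusted p = 0.0134). Wnt10a (at least 57.4-fold), Ror1, a receptor (at least 19.4-fold), Dkk2 (at least 17.0-fold), Sfrp2 (pooled ratio 231 against 3 UMIs, counting interval 78.9 to 1124), Wnt16 (pooled ratio 101 against 1 UMI, counting interval 17.9 to 4039) and Wnt5a (log2 6.53) had the largest fitted changes. The lower bounds and the ratios are not on 1 scale and give no order. Ror1 and Wnt16 also passed the count filter through their Hyper counts and could not be called lower. Within stem cells 20, 0 and 19 of 70 tested were called in these comparisons, beside 18.0%, 0.503% and 16.5% of all genes. The genes tested there include some with the same limit, such as Sfrp2, with 344 UMIs in Hyper and 0 in ENR stem cells.

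The genes whose levels most resembled those of Axin2 over 32 profiles (stem, TA, goblet and EE sums of the 8 libraries) were Dimt1, Mtap, Cdk6, Clic6 and Hsd17b13, with Pearson r of 0.922, 0.907, 0.893, 0.891 and 0.887 among 10525 genes. The profiles share libraries and classes, so r is a description. Among the members r with Axin2 was 0.811 for Rnf43, 0.785 for Tcf7, 0.695 for Myc, 0.462 for Sp5, 0.384 for Lgr4, 0.114 for Znrf3 and 0.045 for Nkd1. Notum and Lef1 missed the filter for these profiles (at least 5 CPM in at least 8 of them) and have no r.

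The colonic libraries, 1132 kept cells from normal and 1933 from DSS-treated mice, had no replicates, and levels are given with exact Poisson intervals without a test. The libraries held different mixes of the study's clusters, among them one with 274 normal and 1 DSS cells and one with 11 normal and 230 DSS cells. In ratios over all kept cells, a change of level within cells cannot be told apart from this change of mix. Of 9 members with a ratio, 2 passed 2-fold either way, where 9.13% of 14029 genes did. Sp5 was at 0.553 CPM (11 UMIs) in normal and 1.54 CPM (50 UMIs) in DSS crypts, a ratio of 2.79 (counting interval 1.44 to 5.95). In the 1 cluster that the study names stem (102 normal and 168 DSS cells), which held 72.7% of the normal and 30.0% of the DSS Sp5 UMIs, it was at 3.25 CPM (8 UMIs) and 4.38 CPM (15 UMIs), a ratio of 1.35 (0.536 to 3.67). Nkd1 was at 0.804 CPM (16 UMIs) and 0.340 CPM (11 UMIs), a ratio of 0.422 (0.177 to 0.969). With every barcode counted the Nkd1 ratio was 0.639 (0.297 to 1.36). Rnf43 had a ratio of 1.53 (1.25 to 1.88), Lgr4 of 1.28 (1.19 to 1.38) and Axin2 of 0.799 (0.674 to 0.948), the last at 1.02 (0.879 to 1.19) with every barcode counted. Znrf3 had a ratio of 1.11 (0.857 to 1.45) and Myc of 1.09 (0.971 to 1.22). Notum had 6 and 2 UMIs. Within the stem cluster, Lgr4 was at 41.1 CPM in normal and 76.4 CPM in DSS cells, a ratio of 1.86 (1.47 to 2.37). The ratio there was 1.81 (1.16 to 2.88) for Rnf43, 1.08 (0.783 to 1.505) for Axin2, 0.957 (0.565 to 1.64) for Znrf3 and 0.918 (0.747 to 1.13) for Myc. Tcf7 had 20 and 11 UMIs in that cluster, a ratio of 0.395 (0.171 to 0.864), and Nkd1 had 6 and 0 UMIs.

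Lef1 and Tcf7, which T cells also use, followed the leukocytes of these libraries. Of the study's 25 clusters, 6 were leukocyte clusters, with a Ptprc UMI in over 50% of their cells. All 41 Lef1 UMIs of normal and all 35 of DSS crypts lay in those clusters, and the other cells had none, under a floor of 0.160 and 0.101 CPM. Tcf7 was at 9.70 and 8.58 CPM over all cells, 185 and 112 CPM in the leukocyte clusters and 2.29 and 1.91 CPM without the clusters and other Ptprc cells, a step that left out 20.4% and 24.6% of cells. Without them the Sp5 ratio was 2.87 (1.47 to 6.11) and the Nkd1 ratio 0.276 (0.0960 to 0.709).

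**Figure D5:**
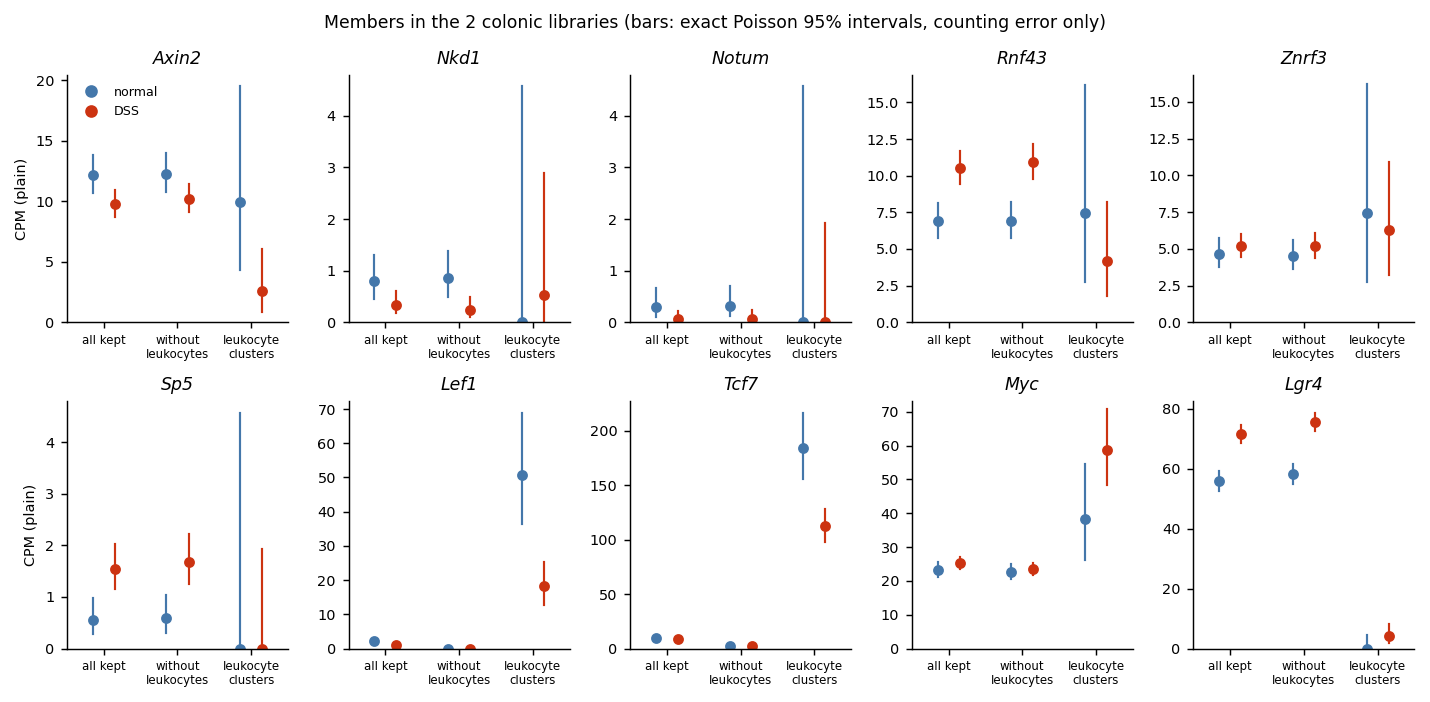
CPM of each member in the normal and DSS colonic libraries with exact 95% Poisson intervals (linear axis from 0), over all kept cells, without the leukocyte clusters and other Ptprc cells, and in the leukocyte clusters alone. Lef1 is seen in the leukocyte clusters only, and Tcf7 is at 185 and 112 CPM there. Sp5 is higher and Nkd1 lower in DSS crypts over all kept cells and without leukocytes. The Nkd1 intervals overlap over all kept cells, on 16 and 11 UMIs.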

How the data were processed

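Single cells of 8 organoid and 2 colonic crypt libraries (mouse, 10x Genomics 3′ v3 chemistry) were sequenced by the authors, who deposited UMI counts per gene and cell, with no normalization, and the class or cluster of each kept cell. The submitters' processing notes name Cell Ranger 3.0.0 and Seurat 3.1.4 with mm10, and the matrix headers name a later Cell Ranger release. Here those deposited counts were added up by gene over all kept cells of a library, and again by class. The deposited table of kept cells and the library matrices agreed in every entry compared. Groups came from the labels. Kept cells reached down to 501 to 611 genes in the different libraries, below the minimum of 1500 in the stated methods, which was run as an alternative. Depth was 89124015 to 170019527 UMIs per organoid library.

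Sums were tested with edgeR 4.0.16 (R 4.3.3): genes filtered by filterByExpr, TMM factors, 1 quasi-likelihood fit of the 8 organoid libraries by group, and Benjamini-Hochberg adjustment over all genes tested, with calls at adjusted p under 0.05 and at least 2-fold. The SE given with edgeR's log2 fold changes is an approximation, the size of the change over the square root of its F statistic. Stem minus TA differences of log2 CPM (prior count 2) were fitted with limma 3.58.1. The colonic libraries, 1 a group, kept the deposited clusters and were given exact Poisson intervals (scipy 1.17.1, Python 3.11.15) at the 95% level. Against a group at 0 UMIs a fold is a lower bound on a floor of 3 UMIs over the group, and against 1 to 3 UMIs a ratio with its counting interval. Doublets were left in, since Scrublet (scanpy 1.11.5) called 2 to 16 cells a library, and the highest-scoring 5% were left out as an alternative. On simulated data with 200 changed genes the test called 40% of 2-fold, 74% of 3-fold, 86% of 4-fold and 96% of 6-fold changes in Hyper against ENR (15685 genes), with 2 false calls, and within the stem class (13612 genes) 26%, 90%, 90% and 96%, with 2 false calls. The 2-fold limit itself holds down the rate for 2-fold changes. The simulation had no effect of culture series and a trended spread. In the data 56.8% of genes had an adjusted p under 0.05, so the false calls need not carry over.

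The rule was to name all 10 members. Within the TA, goblet and enteroendocrine classes the members that were not called are given for Hyper against ENR only. Of the other pathway genes, the 6 with the largest absolute fold change among those called were named, and the 5 genes most like Axin2. Fzd5 and Wnt2, the genes called lower, were named after their values were seen. The members, lists and tests were chosen with earlier results of these data known. The first character of the library names in the labels (2, 6 or C) was taken as a culture series. Deviations from the group means correlated between the pairs of Hyper and ENR libraries of the same series (r 0.192, 0.170 and 0.436). Hyper and ENR libraries of different series gave r of 0.129 and 0.062 between series 2 and 6, and -0.292 to -0.179 between series C and the others. The main fits used the group only and took no account of the pairing by series. The series was fitted as a block as an alternative. For -VE there were only 2 such pairs with each group (r 0.161 and 0.062 with ENR, 0.139 and 0.115 with Hyper). Other alternatives were RLE size factors, DESeq2 1.42.0, no filter, other cell filters, thinning to 10000 UMIs (without cells of fewer UMIs), only the groups compared, and leaving out each library.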

Additional observations from a re-analysis of the deposited data

Results flagged for a closer look

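These results were picked out because the effect of the medium differed between stem and TA cells in a test of the difference itself (limma on each library's stem minus TA difference in log2 CPM, adjusted over 13879 genes). That test took no account of culture series. From ENR- to Hyper-organoids, the stem minus TA difference of Sp5 fell by 0.62, that of Tcf7 fell by 0.58, that of Znrf3 fell by 0.39 and that of Rnf43 fell by 0.21, with adjusted p of 0.00903, 0.0129, 0.044 and 0.0451. For Myc it rose by 0.75 from ENR- to Hyper-organoids (adjusted p = 0.00899) and by 0.61 from -VE- to Hyper-organoids (adjusted p = 0.0394). Myc was higher in stem than in TA cells in 8 of 8 libraries, and the 3 Hyper libraries had the widest gaps. With culture series as a replicate block the directions stayed and none passed, at adjusted p of 0.0542 to 0.131 for Hyper against ENR and 0.206 for Myc in Hyper against -VE, where 0.331% and 0.0% of all genes passed. The shares of stem cells moved with the medium as well, 9.75 to 14.7% in ENR-, 24.3 to 28.2% in -VE- and 40.0 to 44.1% in Hyper-organoids, and their part in these differences was not tested.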

How the results depend on the processing

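Outside the leave-one-out fits, 400 fold changes of single members kept their direction and side of the threshold, 3 no longer passed and 9 changed sign. No member that was called changed sign. With no minimum fold, 10, 3 and 8 members passed over all kept cells in Hyper against ENR, -VE against ENR and Hyper against -VE, in place of 5, 1 and 4. The single call of -VE against ENR became 0 with the replicate block and with thinned cells, and was 0 to 1 without single libraries. In stem cells, Hyper against ENR gave 2 calls after thinning, when Sp5 was under 2-fold and Notum was filtered out, and 2 to 4 without single libraries. Without single libraries the enteroendocrine count of Hyper against -VE was 0 to 1, and the members whose stem minus TA difference differed were 2 to 5 in Hyper against ENR (Nkd1 being added without ENR replicate 1) and 0 to 1 in Hyper against -VE. The colonic count of members past 2-fold was 1 with every barcode. With the replicate block, the members whose stem minus TA difference differed became 0 in both Hyper against ENR and Hyper against -VE, where 0.331% and 0.0% of all genes passed. The block changed no other call, and the paired value for Sp5 in -VE against ENR was 0.97. In these cases the cause was not tested.

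Values that changed sign were all under the threshold. For -VE against ENR over all kept cells, the replicate block gave -0.13 for Nkd1 and -0.22 for Notum, and thinning -1.64 for Notum. In stem cells, Znrf3 in Hyper against ENR was 0.029 with RLE size factors, 0.037 with every gene, 0.022 with only these groups and 0.23 after thinning, and in -VE against ENR 0.062 after thinning. Myc in -VE against ENR stem cells was -0.0086 with the replicate block. Without single libraries, -VE against ENR ranged from -0.42 to 0.83 for Nkd1, -0.075 to 0.28 for Notum and -0.019 to 0.21 for Myc over all kept cells, and -0.089 to 0.21 for Myc in stem cells. In Hyper against ENR stem cells it was -0.061 to 0.0496 for Znrf3 and -0.055 to 0.18 for Axin2. The stem minus TA change ranged from -0.62 to 0.56 for Lef1 in -VE against ENR, and in Hyper against -VE from -0.010 to 0.074 for Sp5, -0.61 to 0.049 for Nkd1, -0.052 to 0.0061 for Rnf43 and -1.43 to 0.40 for Notum. The prior count has a part in the Lef1 and Notum values.

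Depth limits Notum and Lef1 in ENR- and -VE-organoids, where a library held 4 to 18 UMIs of each. The -VE group has 2 libraries, and leaving out 1 assumes that the other varies like the rest. The replicate block and the fits without single libraries in TA, goblet and enteroendocrine cells, and the stem minus TA fits with the block or without single libraries, were chosen after seeing the data.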
